A study of Mus musculus with 11 samples.

Results

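Spsb1, Slc13a4, Slco2a1, Prg4 and Gpx3 are 5 genes whose transcripts were modestly lower in eyes of miR-211−/− mice across the sequenced libraries. They were selected on the fold change in these same libraries and listed as genes outside fat, a placing that was not tested. They are 5 of 38393 genes in the deposited tables and 5 of 15767 genes that reached 1 CPM (counts scaled to a common library size) in at least 5 of the 11 libraries. Since the difference between genotypes in these libraries is what picked the genes, their WT and KO values are given as a description, with no test.

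RNA was sequenced from the eye of 1-2 month old mice of the strain labelled C57BL/6 (the J substrain in the methods), from 5 wild type (WT) and 6 miR-211−/− (KO) animals. The KO line carries a constitutive deletion of the miR-211 precursor, which lies in an intron of Trpm1, so that every cell of the animal lacks the miRNA. The sample held retina, retinal pigment epithelium, choroid, sclera and ciliary body, with lens and cornea dissected away. By the methods all KO animals were male and the WT animals were of both sexes, and the labels do not give the sex of each library. The libraries also form 2 series. WT replicates 1 and 2 and KO replicates 1 to 3 were named by mouse number, and WT replicates 3 to 5 and KO replicates 4 to 6 were named by age. These names are not in the sample labels, and what else differed between the series is not known.

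The assigned read pairs ranged from 20282241 to 36317673 in KO libraries and from 22224813 to 28171160 in WT libraries. Mir211 had no reads in any of the 11 libraries, WT included, so these reads gave no check of the deletion. Its host gene Trpm1 was at 430 ± 67.2 CPM in WT (SD, n = 5) and 433 ± 19.1 CPM in KO (SD, n = 6). Xist, the RNA of the inactive X chromosome, was at 1248, 796 and 1636 CPM in WT 1, WT 3 and WT 5 while the other 8 libraries had 1.29 CPM or less. Ddx3y, a Y-linked gene, was at 0.0709 and 0.0829 CPM in WT 1 and WT 5, at 37.3 CPM in WT 3 and at 67.2 to 85.2 CPM in the rest, so that WT 3 held both Xist and a Y-linked transcript. WT 3 may therefore not be the RNA of a single animal, and without it the log2 differences of the 5 genes (KO minus WT) were -0.75 for Spsb1, -0.39 for Slc13a4, -0.88 for Slco2a1, -0.97 for Prg4 and -0.85 for Gpx3. Xist was also the single gene with an adjusted p under 0.1 between the genotypes (edgeR likelihood ratio test), which is 0.00634% of the expressed genes. Marker genes of rods summed to between 28309 and 44727 CPM and those of the retinal pigment epithelium to between 1796 and 2333 CPM over the 11 libraries, while lens genes reached 92327 CPM in WT 4 and 24693 CPM in KO 3 although the lens had been removed.

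The 5 genes belong to separate processes, and in which tissue of the eye each was expressed was not tested. SPSB proteins are adaptors that bring client proteins to a cullin ubiquitin ligase. SLC13A4 carries sulfate and SLCO2A1 carries prostaglandins across cell membranes. Proteoglycan 4 and glutathione peroxidase 3 are secreted. The first is a lubricant of wet surfaces and the second a selenium enzyme that removes peroxides outside the cell. Prostaglandin uptake and breakdown are known for their part in the control of eye pressure, and a miRNA such as miR-211 lowers the amount of transcripts that pair with its seed, bases 2 to 8.

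The mature sequence that the KO mice lack is printed beside that of its paralog miR-204, with the seed in capitals, because a paired target site in a listed gene could be read by either. Both come from the RefSeq table on GRCm38.p6, miR-211-5p from chr7:64205831-64205852 and miR-204-5p from chr19:22750610-22750631, both on the plus strand.
mmu-miR-211-5p: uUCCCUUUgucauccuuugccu
mmu-miR-204-5p: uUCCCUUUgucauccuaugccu
They differed by 1 substitution, U17A, counted from the 5′ end of miR-211-5p. The heptamer AAAGGGA, which pairs with this shared seed, was searched for in the 3′ UTR of 1 annotated transcript per gene (GRCm38). It was found in 1 of the 5 genes, Slco2a1, at chr9:103089830-103089858 on the plus strand. The site lies 3962 bases after the stop codon in a 3′ UTR of 4572 bases. The searched transcript of Slco2a1 is 7122 bases long. The effective transcript length implied by its counts, FPKM and library totals was shorter, at 3.949 to 3.997 kb. Whether the Slco2a1 RNA counted here holds the site was not tested.
Slco2a1 site: agacgtggagaAAAGGGAcagagaggaga
Of 1117 expressed genes with a 3′ UTR of like length, 39.6% held this heptamer, and 15.0% of all 14327 genes with a 3′ UTR did. The 3′ UTRs of Spsb1 (1931 bases), Slc13a4 (874 bases), Prg4 (572 bases) and Gpx3 (719 bases) did not hold these letters. All 5 transcripts, Slco2a1 included, had lower means in KO.

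Promoter sequence was printed for the genes to show how unlike their start regions are, given that the 5 transcripts were listed together. The RefSeq table held 300 bases, 250 before and 50 after the start, for 4 of the 5 genes matched by symbol (GRCm38.p6). Matches on either strand are in capitals for the TATA box (TATAAA), the CCAAT box (CCAAT), the GC box (GGGCGG), the hypoxia factor core (ACGTG) and the antioxidant response core (TGACNNNGC). None of these overlaps another as printed. Spsb1 is at chr4:149954957-149955256 (minus strand), Slc13a4 at chr6:35308077-35308376 (minus), Slco2a1 at chr9:103008237-103008536 (plus) and Gpx3 at chr11:54902604-54902903 (plus).
Spsb1: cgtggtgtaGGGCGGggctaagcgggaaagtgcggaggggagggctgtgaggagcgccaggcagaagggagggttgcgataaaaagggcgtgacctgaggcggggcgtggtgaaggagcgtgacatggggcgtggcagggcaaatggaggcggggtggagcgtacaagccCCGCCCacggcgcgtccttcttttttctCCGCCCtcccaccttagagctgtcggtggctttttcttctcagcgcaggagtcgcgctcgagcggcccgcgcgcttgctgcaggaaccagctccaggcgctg
Slc13a4: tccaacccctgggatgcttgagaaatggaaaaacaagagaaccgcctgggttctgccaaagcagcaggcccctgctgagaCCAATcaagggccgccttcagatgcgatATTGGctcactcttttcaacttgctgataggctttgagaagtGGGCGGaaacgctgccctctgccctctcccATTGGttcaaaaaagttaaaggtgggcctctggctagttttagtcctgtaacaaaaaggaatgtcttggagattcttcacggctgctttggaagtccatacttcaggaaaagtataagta
Slco2a1: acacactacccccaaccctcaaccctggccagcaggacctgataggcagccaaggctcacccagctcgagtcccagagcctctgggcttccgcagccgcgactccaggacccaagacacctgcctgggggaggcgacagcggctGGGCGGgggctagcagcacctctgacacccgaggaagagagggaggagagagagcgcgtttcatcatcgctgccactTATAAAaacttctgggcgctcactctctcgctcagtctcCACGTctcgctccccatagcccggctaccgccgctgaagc
Gpx3: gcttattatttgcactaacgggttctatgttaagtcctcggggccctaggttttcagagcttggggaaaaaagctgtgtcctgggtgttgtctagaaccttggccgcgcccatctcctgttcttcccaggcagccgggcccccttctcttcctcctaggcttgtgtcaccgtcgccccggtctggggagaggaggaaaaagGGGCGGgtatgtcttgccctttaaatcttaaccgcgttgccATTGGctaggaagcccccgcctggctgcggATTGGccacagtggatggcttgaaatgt
The GC content was 66.3% for Spsb1, 64.0% for Slco2a1, 56.3% for Gpx3 and 48.7% for Slc13a4. GGGCGG, the GC box, was found in all 4, with 3 matches in Spsb1, and in 35.7% of 32851 promoters of the table. CCAAT had 3 matches in Slc13a4 and 2 in Gpx3 (37.4% of promoters), TATAAA had 1 match in Slco2a1 (13.6%), and ACGTG had 1 match in Slco2a1 (19.6%). TGACNNNGC had none (12.4%). No motif other than the GC box was present in all 4.

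Per transcript length the 5 genes covered a wide range of levels, and the order was the same in both genotypes. Gpx3 was highest, at 136 ± 65.6 FPKM in WT and 82.3 ± 28.5 in KO, above 97.2% of expressed genes by its WT mean. Slc13a4 followed at 9.23 ± 1.65 and 7.04 ± 0.561 FPKM, and Spsb1 at 7.06 ± 1.70 and 4.58 ± 1.41 FPKM. Prg4 was at 2.69 ± 0.784 and 1.32 ± 0.331 FPKM and Slco2a1 at 1.21 ± 0.259 and 0.747 ± 0.259 FPKM, the last above only 9.23% of expressed genes (SD, n = 5 WT and 6 KO throughout). The ranges of the neighbours Slc13a4 and Spsb1 overlapped in both genotypes (7.76 to 11.03 against 5.60 to 9.99 FPKM in WT), and those of Prg4 and Slco2a1 overlapped in KO (0.98 to 1.84 against 0.50 to 1.12 FPKM) but not in WT, while Gpx3 stood apart from the rest in every library. In reads, Slco2a1 rested on 48 to 176 read pairs a library and Prg4 on 73 to 280, so counting error is largest for these, against 233 to 845 for Spsb1, 479 to 878 for Slc13a4 and 1755 to 10905 for Gpx3.

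The mean CPM in KO was below that in WT by 47.2% for Prg4, 40.9% for Gpx3, 40.8% for Slco2a1, 38.3% for Spsb1 and 26.1% for Slc13a4. On the log2 scale the 5 differences ran from -0.92 to -0.44 with a median of -0.76, beside a median of 0.00273 over all expressed genes, of which 4.59% were at or below -0.44. In tissue RNA of this kind, fewer cells of a type and less RNA per cell cannot be told apart.

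**Figure D1:**
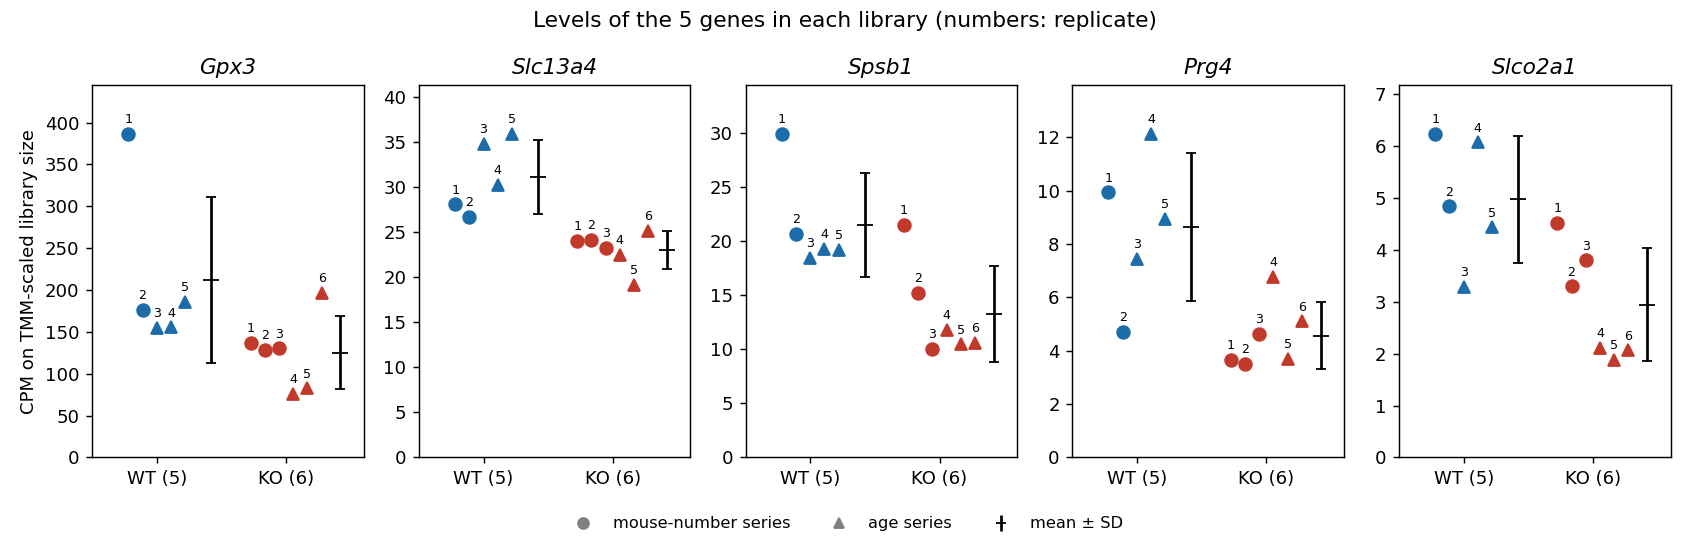
CPM of the 5 genes in each of the 5 WT (blue) and 6 KO (red) libraries, with circles for the mouse-number series, triangles for the age series, replicate numbers above the points, and bars for mean ± SD. For Slc13a4 the highest KO library (25.1 CPM) lies below the lowest WT library (26.7 CPM), and in the other 4 panels the genotypes overlap.

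Spsb1 (ENSMUSG00000039911, chr4:149896283-149955043, minus strand, GRCm38) encodes the SPRY domain and SOCS box adaptor that directs, among others, inducible nitric oxide synthase to degradation. In WT replicates 1 to 5 it was at 30.0, 20.7, 18.4, 19.3 and 19.2 CPM. In KO its lowest, median and highest libraries were at 10.1, 11.2 and 21.5 CPM. The 5 lowest libraries were KO, and the exception was KO 1, which at 21.5 CPM was above every WT library but WT 1. The means were 21.5 ± 4.79 CPM in WT and 13.3 ± 4.44 CPM in KO, a log2 difference of -0.70 (SE 0.23).
Within the series the difference was -0.70 (SE 0.36) in the mouse-number series and -0.79 (SE 0.15) in the age series. In the age series the genotypes did not overlap. How many of all expressed genes lack overlap within a series was not computed. The choice of the genes favours such a pattern, so nothing is read from it for any of them. The other SPSB genes had log2 differences of -0.04 for Spsb3, 0.02 for Spsb2 and 0.03 for Spsb4.

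Slc13a4 (ENSMUSG00000029843, chr6:35267957-35308131, minus strand) encodes a sodium-coupled sulfate transporter. In WT replicates 1 to 5 it was at 28.1, 26.7, 34.9, 30.3 and 35.98 CPM. In KO its lowest, median and highest libraries were at 19.1, 23.7 and 25.1 CPM. It was the 1 gene of the 5 without any overlap of the genotypes, with all KO libraries under the lowest WT library, a pattern that 0.0761% of expressed genes had. Since the contrast picked the gene, that share is given beside it and nothing is read from it.
Its means were 31.2 ± 4.10 CPM in WT and 23.1 ± 2.10 CPM in KO, and its log2 difference of -0.44 (SE 0.12) was the smallest of the 5. In the mouse-number series the difference was -0.20 (SE 0.15), and in the age series it was -0.59 (SE 0.16). KO means were close in the series, at 23.8 and 22.3 CPM, whereas WT means were 27.4 CPM in the mouse-number and 33.7 CPM in the age series. Of the other SLC13 genes, Slc13a3 and Slc13a5 had log2 differences of -0.21 (SE 0.17) and 0.16 (SE 0.18), and Slc13a2 one of -0.73 with an SE of 0.60.

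Slco2a1 (ENSMUSG00000032548, chr9:102988712-103096002, plus strand) encodes the prostaglandin transporter, which takes up prostaglandins from outside the cell before they are broken down. In WT replicates 1 to 5 it was at 6.24, 4.84, 3.28, 6.07 and 4.44 CPM. In KO its lowest, median and highest libraries were at 1.89, 2.71 and 4.52 CPM. The 3 KO libraries of the age series were the lowest of all, at 1.89 to 2.11 CPM, and those of the mouse-number series, at 3.30 to 4.52 CPM, lay above WT 3 and, in KO 1, also above WT 5, both of the other series.
Its means were 4.97 ± 1.22 CPM in WT and 2.95 ± 1.09 CPM in KO, a log2 difference of -0.76 (SE 0.28). The difference was -0.53 (SE 0.28) in the mouse-number series and -1.17 (SE 0.30) in the age series. The genotypes did not overlap within either, which the choice of the gene favours and for which no share of all expressed genes was computed.

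Prg4 (ENSMUSG00000006014, chr1:150449412-150466165, minus strand) encodes lubricin, the mucin-like glycoprotein of joints that is also found on the ocular surface. In WT replicates 1 to 5 it was at 9.93, 4.71, 7.43, 12.1 and 8.95 CPM. In KO its lowest, median and highest libraries were at 3.52, 4.16 and 6.78 CPM. WT 2 was the 1 WT library inside the KO range, and it was still above the 3 KO libraries of its own series.
Its means were 8.63 ± 2.78 CPM in WT and 4.56 ± 1.251 CPM in KO, and its log2 difference of -0.92 (SE 0.27) was the largest of the 5. The difference was -0.90 (SE 0.39) in the mouse-number series and -0.86 (SE 0.31) in the age series, again with no overlap within a series. The gene shares 524 bases with Tpr on the opposite strand, and the counting is not stated to use strand, so reads from that stretch could belong to either. Tpr itself had a log2 difference of 0.07 (SE 0.11).

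Gpx3 (ENSMUSG00000018339, chr11:54902453-54910377, plus strand) encodes the glutathione peroxidase of plasma and other extracellular fluids. In WT replicates 1 to 5 it was at 387, 176, 155, 155 and 186 CPM. In KO its lowest, median and highest libraries were at 75.7, 130 and 196 CPM. WT 1 was far above every other library, and KO 6, at 196 CPM, was above all WT libraries except WT 1.
Its means were 212 ± 98.7 CPM in WT and 125 ± 43.6 CPM in KO, a log2 difference of -0.76 (SE 0.30). Without WT 1 alone this was -0.43 (SE 0.25). In the mouse-number series the genotypes did not overlap and the difference was -1.09 (SE 0.35), and in the age series KO 6 lay above all 3 WT libraries and the difference was -0.48 (SE 0.37). Of the 5 expressed enzymes of the family, the intracellular Gpx4 was the only one above Gpx3 per length, at 354 FPKM in WT, and the log2 differences of Gpx4, Gpx1, Gpx8 and Gpx7 lay between -0.25 and -0.13.

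All 5 genes were lower in KO in the fit of each series alone, as were 27.8% of the expressed genes. The gap between the series' differences, age minus mouse-number, was -0.64 (SE 0.41) for Slco2a1, -0.39 (SE 0.22) for Slc13a4, -0.09 (SE 0.39) for Spsb1, 0.03 (SE 0.49) for Prg4 and 0.61 (SE 0.51) for Gpx3. Since both series took part in the choice of the genes, nothing is read from how near these gaps are to zero.

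**Figure D2:**
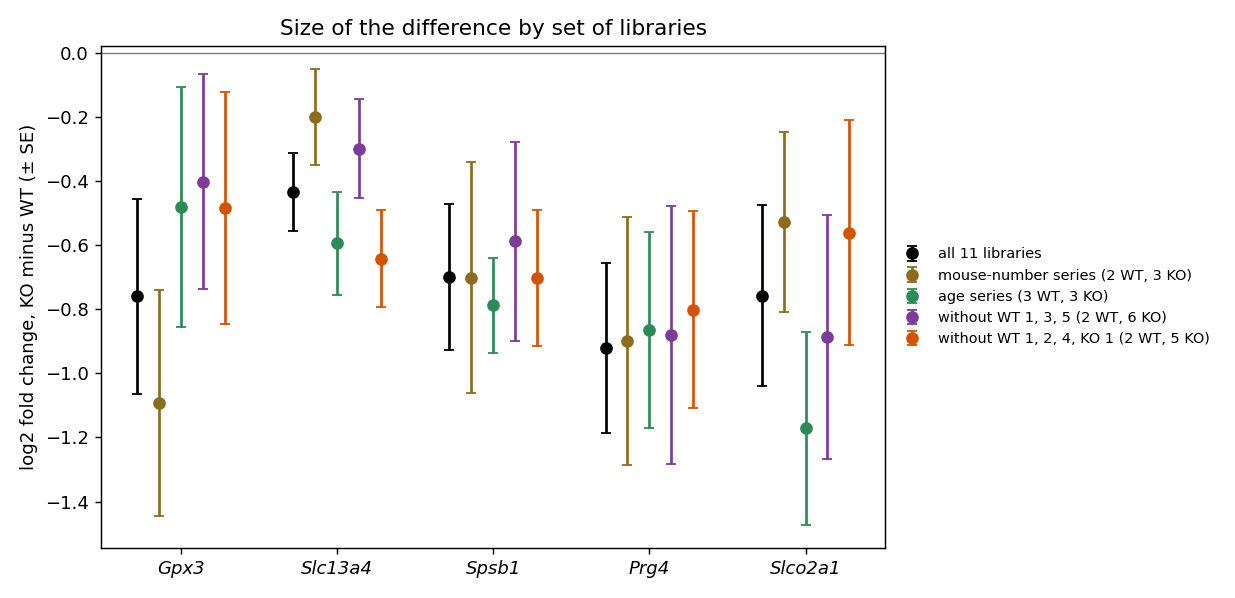
Log2 fold change, KO minus WT, with its SE (bars), for each gene in all 11 libraries (black), the mouse-number series (brown), the age series (green), without WT 1, 3 and 5 (purple) and without WT 1, 2, 4 and KO 1 (orange). All 25 values lie below zero, from -1.17 for Slco2a1 in the age series to -0.20 for Slc13a4 in the mouse-number series.

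Apart from genotype, the genes were compared between the series with genotype as a covariate, a contrast that was not used to list them. Spsb1 was lower in the age series by a log2 difference of -0.46 (SE 0.18, adjusted p = 0.0376, edgeR) and Slco2a1 by -0.62 (SE 0.21, adjusted p = 0.0186, edgeR). For Spsb1 the mean was 25.3 CPM in WT and 15.6 CPM in KO of the mouse-number series and 18.996 and 10.968 CPM in the age series. For Slco2a1 the corresponding means were 5.54, 3.87, 4.596 and 2.02 CPM. The call for Spsb1 was lost without WT 1 or KO 1 (adjusted p = 0.157 and 0.138, edgeR) and, by a narrow margin, without KO 5.
Gpx3 differed by -0.43 (SE 0.28), Prg4 by 0.39 (SE 0.24) and Slc13a4 by 0.08 (SE 0.11), with adjusted p = 0.247, 0.224 and 0.640 (edgeR). Gpx3 passed the threshold without KO 6, at -0.75 (adjusted p = 0.00207, edgeR), and Prg4 did so without WT 1, at 0.60 (adjusted p = 0.0623, edgeR). Thus 2 of the 5 genes differed between the series, both lower in the age series, where 36.3% of all expressed genes differed 21.7% being lower and 14.6% higher.

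The genes were then compared with each other after the mean of each genotype in each series had been subtracted, so that neither the genotype nor the series enters. Of 10 pairs, 9 had a positive Pearson correlation over the 11 libraries. With 1 library left out the number was 6 to 10, and with only the genotype means subtracted it was 6. The highest was that of Slco2a1 with Prg4, at r = 0.68 and Spearman's rho = 0.72, each with p = 0.0324 in a two-sided permutation test within genotype and series and an adjusted p = 0.324 over the 10 pairs. Without WT 4 and WT 3, the farthest from the median of Slco2a1, r was 0.63. Slc13a4 with Gpx3 followed at r = 0.63 and rho = 0.59 (permutation p = 0.194 and 0.174, adjusted p = 0.532 and 0.579), and Slc13a4 with Slco2a1 was the negative pair at r = -0.20. No pair had an adjusted p under 0.1.

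Other genes that tracked each member were ranked by Pearson's r of log2 CPM over all 11 libraries, a description over 15767 genes in which the genotype and the series take part. For Spsb1 the nearest 5 were Rpl14-ps1, Rin3, Plekhf1, Lrg1 and Cmklr1 (r from 0.94 to 0.97). Rpl14-ps1 is a pseudogene whose reads may come from its parent. For Slc13a4 they were Tns3, Slc25a30, Timp3, Arhgef10 and Ctnnbl1 (0.85 to 0.92), among them the matrix metalloproteinase inhibitor Timp3. For Slco2a1 they were Itga11, a collagen receptor subunit, Slc43a1, Igfbp5, the leptin receptor Lepr and Ntn4 (0.95 to 0.98). For Prg4 they were the hexokinase Hk2, Gna12, Ppp1r1a, Ipo4 and Cfap100 (0.85 to 0.91). For Gpx3 they were Mob2, the metallothionein Mt1, Saraf, the ferritin heavy chain Fth1 and Slc37a2 (0.92 to 0.93).
After subtraction of the genotype and series means the nearest genes were others. They were Cebpb, Susd6, Mxd4, Cluh and Apba3 for Spsb1 (0.95 to 0.98), Stard13, Tbc1d1, Flvcr2, Hdc and Gab2 for Slc13a4 (0.94 to 0.97), and Pml, Uqcrh, Nudt7, Myc and Klhl25 for Slco2a1 (0.97 to 0.98). For Prg4 they were Mrpl24, Slc9a3r1, Smim3, Cdk2ap1 and Inka1 (0.95 to 0.99), and for Gpx3 Lsm10, Ambra1, Gm14288, Nradd and Hist1h2bc (0.94 to 0.97). None of the 5 listed genes was among the nearest of another.

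Few other genes of the same pathways differed between the genotypes. Of 138 other expressed genes in 6 lists, 5 were lower in KO at an unadjusted p under 0.05 (3.62%), beside 1.77% of all expressed genes, and 0 were higher, beside 0.323%. None of the 138 had an adjusted p under 0.1 (edgeR). Leaving out 1 library moved the count from 2 (without WT 1) to 13 (without WT 3), with 9 without WT 5 and 8 without WT 2, KO 1 or KO 3.
Around Slco2a1, the prostaglandin list held 2 of 25, the receptors Ptger3 and Ptgfr for prostaglandins E2 and F2alpha. Ptger3 was at 1.54 ± 0.644 CPM in WT and 0.887 ± 0.280 CPM in KO, a log2 difference of -0.82 (SE 0.33, adjusted p = 1.00, edgeR). It lies near the floor, with a KO mean under the 1 CPM of the filter. Ptgfr was at 4.17 ± 2.34 and 2.43 ± 0.779 CPM, -0.78 (SE 0.36, adjusted p = 1.00, edgeR). Between the series Ptgfr was lower in the age series, by -0.83 (adjusted p = 0.0115, edgeR). The list's median log2 difference was -0.16. Among 8 other organic anion transporting polypeptides 1 was so placed, Slco2b1, at 15.8 ± 2.46 and 12.3 ± 1.32 CPM (-0.37, SE 0.14, adjusted p = 1.00, edgeR), and the median was 0.02.
Around Prg4, the lubricin, hyaluronan and mucin list held 1 of 23, the matrix proteoglycan Prelp, at 96.7 ± 29.2 and 70.3 ± 10.1 CPM (-0.46, SE 0.19), with a list median of -0.18. Around Gpx3, the antioxidant list held 1 of 41, the extracellular superoxide dismutase Sod3, at 37.0 ± 8.33 and 27.0 ± 5.06 CPM (-0.45, SE 0.18), with a median of -0.08. Around Spsb1 and Slc13a4, 0 of 23 ligase and client genes and 0 of 18 sulfate genes were so placed, and the medians were 0.02 and 0.01.
With the series as a covariate the count was 14 of 138 in place of 5 (10.1%), beside 5.23% of all expressed genes, while 0 were higher, beside 1.34%. Again 0 of them had an adjusted p under 0.1 (edgeR), which 0.0634% of all expressed genes had in that fit. The prostaglandin list then held 5 of 25, with the cyclooxygenases Ptgs1 and Ptgs2 and the thromboxane synthase Tbxas1 joining the receptors.

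**Figure D3:**
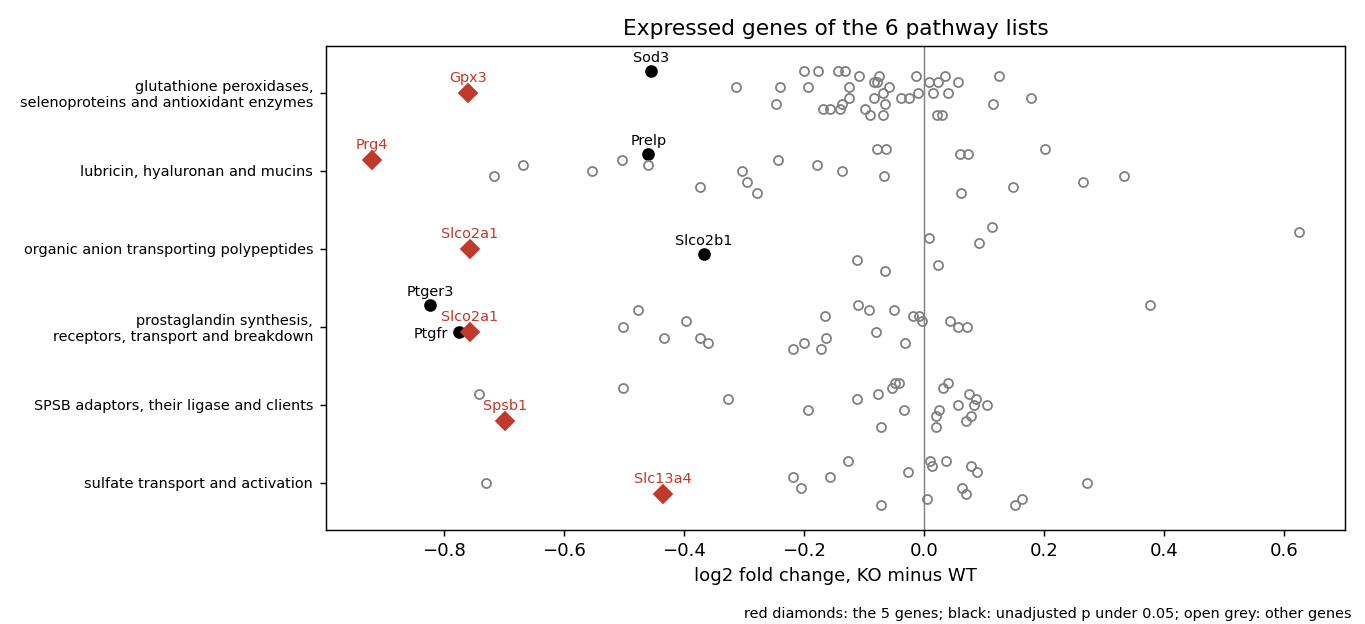
Log2 fold change, KO minus WT, of the expressed genes in each of the 6 pathway lists, with the 5 listed genes as red diamonds, genes at an unadjusted p under 0.05 as black points and the others as open circles. Ptger3 (-0.82) and Ptgfr (-0.78) lie beside Slco2a1, which stands in both of its lists, and most other genes lie near zero. The KO mean of Ptger3 was under 1 CPM.

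The genes were listed as lying outside fat, which was not tested, and adipocyte marker genes varied beside some of them. The 13 expressed adipocyte markers of 14 listed summed to 1249, 908, 167, 608 and 297 CPM in WT 1 to 5 and to 847, 359, 209, 184, 147 and 173 CPM in KO 1 to 6, and all 13 were lower in KO, 5 of them at an unadjusted p under 0.05. Of all expressed genes, 48.9% were lower in KO, and 1.77% were lower at an unadjusted p under 0.05 (edgeR). The 4 libraries with the highest sums, WT 1, WT 2, KO 1 and WT 4, were also the 4 highest for Spsb1 and the 4 highest for Slco2a1. The margins were narrow, with Spsb1 at 19.3 CPM in WT 4 and 19.2 in WT 5, and Slco2a1 at 4.52 in KO 1 and 4.44 in WT 5. It did not hold for Slc13a4, Prg4 or Gpx3, and Slc13a4 was highest in WT 5 and WT 3.
WT 2 and KO 1 had similar sums, and there Spsb1 was at 20.7 and 21.5 CPM, Slco2a1 at 4.84 and 4.52, Slc13a4 at 26.7 and 24.1, Prg4 at 4.71 and 3.67, and Gpx3 at 176 and 137. WT 3, the library with both Xist and Ddx3y, had a sum inside the range of KO 3 to 6, and there Spsb1 was at 18.4 CPM against 10.1 to 11.8 and Slc13a4 at 34.9 against 19.1 to 25.1. Prg4 in WT 3 was at 7.43 CPM against 3.70 to 6.78 in those libraries, while Slco2a1 at 3.28 and Gpx3 at 155 lay inside their ranges. For Slco2a1 this was through KO 3 of the mouse-number series, at 3.80 CPM. The KO libraries of the age series, that of WT 3, were at 1.89 to 2.11 CPM. Without WT 1, 2 and 4 and KO 1, which leaves 2 WT and 5 KO libraries, the log2 differences were -0.70 (SE 0.21) for Spsb1, -0.64 (SE 0.15) for Slc13a4, -0.56 (SE 0.35) for Slco2a1, -0.80 (SE 0.31) for Prg4 and -0.48 (SE 0.36) for Gpx3. The WT libraries left, WT 3 and WT 5, are both of the age series and both carry Xist. The KO libraries left include KO 2 and KO 3 of the mouse-number series. Genotype in this set therefore goes with sex and in part with the series, for which the fit had no term. These differences come from the contrast that picked the genes, and the part of fat in the lower levels was not tested.

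**Figure D4:**
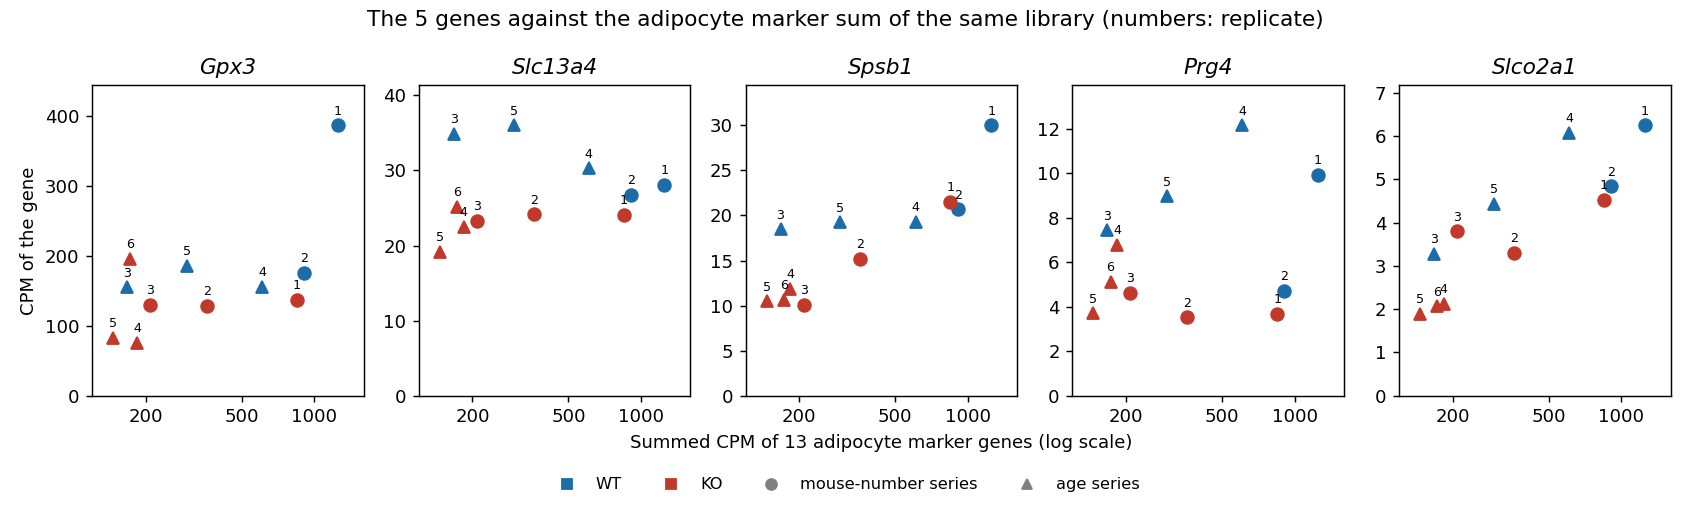
CPM of each gene against the summed CPM of 13 adipocyte marker genes in the same library (log axis), with WT in blue, KO in red, circles for the mouse-number and triangles for the age series. WT 2 (908) and KO 1 (847) have near sums and near levels of Spsb1 and Slco2a1. Slc13a4 is higher in each WT library than in any KO library, which the choice of the gene favours. Apart from KO 1 the KO sums run from 147 to 359, so not every WT sum has a KO library near it.

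Marker lists of 13 other tissues and cell types were read in the same way, by lowest, median and highest sum. Skeletal muscle genes were high in the same libraries as fat genes, at 13014 CPM in WT 1, 12829 in KO 1 and 11938 in WT 2. They summed to 1628, 7456 and 13014 CPM in WT and to 1313, 3256 and 12829 in KO, with 13 of 13 lower in KO and 0 of them at an unadjusted p under 0.05 (edgeR), beside 1.77% of all expressed genes. Leptomeningeal genes summed to 233, 251 and 253 CPM in WT and to 178, 213 and 241 in KO (12 of 12 lower, 2 at that p).
Stromal fibroblast and scleral genes summed to 1574, 2175 and 4250 CPM in WT and to 935, 1623 and 3077 in KO (12 of 13 lower, 3 at that p), and endothelial genes to 375, 393 and 531 in WT and 319, 389 and 440 in KO (11 of 12 lower, 4 at that p). Macrophage genes summed to 135, 145 and 301 CPM in WT and to 102, 129 and 158 in KO (9 of 9 lower, 3 at that p). The 301 CPM was that of WT 1, the library highest in Spsb1 and Gpx3, and the other WT libraries lay inside the KO range. All members were also lower for smooth muscle and pericyte (8, 0 at that p), lens (10, 3 at that p), melanocyte (5, 0 at that p) and blood (5, 0 at that p), and 6 of 7 for ciliary body epithelium (1 at that p). Lens genes summed to 26.5, 38.0 and 92327 CPM in WT and to 10.6, 66.7 and 24693 in KO, so the KO median was the higher. The highest WT sum was that of WT 4, and the next, WT 5, was at 39.5 CPM.
The lists that were not mostly lower were cornea and conjunctiva (5 of 9), retinal pigment epithelium (4 of 7) and rods (1 of 9), with 0 genes at that p in either direction. The part of these tissues in the lower levels of the 5 genes was not tested.
The genotype also goes with sex here, since the 3 WT libraries with Xist have no KO counterpart. Against WT 2 and WT 4 alone, the log2 differences were -0.59 (SE 0.31) for Spsb1, -0.30 (SE 0.15) for Slc13a4, -0.89 (SE 0.38) for Slco2a1, -0.88 (SE 0.40) for Prg4 and -0.40 (SE 0.34) for Gpx3. Those of Gpx3 and Slc13a4 were closer to zero, at -0.40 against -0.76 and -0.30 against -0.44 with all libraries. WT 4, part of this small WT reference, is the library with 92327 CPM of lens genes.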

How the data were processed

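RNA-seq libraries (TruSeq) of 5 WT and 6 KO eyes were analysed from 1 table per library. The authors aligned read pairs to Gencode M4 transcripts with RSEM 1.2.19 and deposited expected counts and FPKM per gene. Expected counts were rounded to whole numbers. The 15767 genes that reached 1 CPM in 5 or more libraries were fitted with edgeR 4.0.16 (R 4.3.3), on TMM-scaled library sizes with negative binomial dispersions, and genotype was tested with the likelihood ratio test and Benjamini-Hochberg adjustment at 0.1. Standard errors come from the fitted model. CPM are on TMM-scaled totals, and a prior count of 2 was used for log2 CPM. FPKM, as deposited, served for levels between genes and had no test.

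The series came from column names of a supplementary table, matched to all 11 libraries by their counts. The 5 genes and all lists were chosen with earlier results of these data known. Genes named are the 5, checks of the labels, other family members, up to 4 list genes per direction with the smallest p, and the 5 most alike per gene by 2 measures. Symbols were found for 95.4% of identifiers. The scripts were tested on simulated data. DESeq2 1.42.0, other scalings, filters, the series as covariate and leaving out each library were tried, and 2 reduced sets of libraries were chosen after seeing the data. P-values measure the spread between these libraries.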

Additional observations from a re-analysis of the deposited data

Results flagged for a closer look

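Each of the 5 genes was examined for a library far from the others of its group in CPM, which gives 10 groups, and 2 stood out by Dixon's test at 95%. Chance flags about 1 group in 20. Spsb1 was at 30.0 CPM in WT 1, and the gap to the next WT library was 0.808 of the range of the 5 WT libraries. Gpx3 was at 387 CPM in WT 1, with a gap of 0.867 of the range. Both values come from the same library, which also had the highest adipocyte and macrophage marker sums, at 1249 and 301 CPM, and carried Xist.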

How the results depend on the processing

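The log2 differences of the 5 genes between genotypes were below zero under all 21 alternatives, a direction that the choice of the genes favours, and with 1 library left out they ranged from -0.89 to -0.55 for Spsb1, -0.49 to -0.38 for Slc13a4, -0.92 to -0.66 for Slco2a1, -1.08 to -0.76 for Prg4 and -0.93 to -0.43 for Gpx3 (-0.43 without WT 1). The 1 value that moved beyond its spread was -0.64 for Slc13a4 without the 4 libraries highest in adipocyte genes. The number of genes called between genotypes, 1 here, was 0 with the edgeR quasi-likelihood test (446 at an unadjusted p under 0.05), 2 with DESeq2, 2 with any gene of at least 1 count, 10 with the series as a covariate, 3 without the WT libraries with Xist, 5 without the 4 libraries highest in adipocyte genes, and 1 to 11 with 1 library left out (11 without KO 1, 2 without WT 2). The pathway genes lower in KO, 5 here, numbered 14 with the covariate and 2 to 13 with 1 library left out (2 without WT 1, 13 without WT 3, 9 without WT 5, and 8 without WT 2, KO 1 or KO 3). For the series, the range with 1 library left out was -0.58 to -0.31 for Spsb1, -0.76 to -0.53 for Slco2a1, 0.02 to 0.15 for Slc13a4, 0.23 to 0.60 for Prg4 and -0.75 to -0.14 for Gpx3. Pairs of the 5 genes with an adjusted p under 0.1 numbered 0 to 1 (1 without KO 1, 1 without KO 3). The cause of these changes was not tested.

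Same-numbered WT and KO libraries deviated together for numbers 1, 2 and 5 (r = 0.54, 0.63 and 0.53) and not for 3 and 4 (-0.33 and -0.26). WT 3 and KO 3 are of different series. The mean r was 0.22 for same-numbered libraries, 0.30 for different numbers of the same series and -0.32 for different series. The numbers were therefore not taken as pairs. With the replicate number as a block, and without KO 6, 10 genes were called. The series differences were then 0.25 for Spsb1, -1.13 for Slco2a1 and -0.31 for Prg4. In that fit they rest on WT 3 against KO 3, the only number with libraries in both series. They are therefore no second estimate of the series difference over the libraries.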

Other observations

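For Prg4 the difference was larger in FPKM than in CPM, with KO means at 0.492 and 0.528 of the WT means, whereas for the other 4 genes the FPKM ratio was the higher one. The effective transcript length implied by counts, FPKM and library totals ran from 2.66 to 3.93 kb between libraries for Prg4. It ran from 1.53 to 1.54 kb for Gpx3 and from 3.29 to 3.36 kb for Slc13a4. For Slco2a1 it ran from 3.949 to 3.997 kb, below the 7122 bases of the transcript searched for the seed site. Of the 55 pairs of libraries, the nearest by a chi-square of counts per gene were WT 2 and KO 1 (8.46 per gene), of different genotypes and the same series, followed by KO 4 and KO 5 (12.5 per gene).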
